A study of Mus musculus with 6 samples.

Results

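The genes described here are 10 transcription regulators of red cell development in mouse blood stem and progenitor cells: Gata1, Klf1, Tal1, Zfpm1, Nfe2, Gfi1b, Lmo2, Ldb1, Lyl1 and Myb. They were taken by gene name from the RNA-seq tables, and all 10 were found among 14455 gene symbols and listed in all 4 libraries. The cells were bone marrow LSK cells of C57BL/6 mice, a sorted population that carries c-Kit and Sca-1, lacks the surface markers of mature lineages and holds the blood stem cells and multipotent progenitors. There were 4 RNA-seq libraries, a WT and a KO of young cells and a WT and a KO of old cells, where KO is loss of Setd2, the enzyme that places the trimethyl mark on lysine 36 of histone H3. All 4 groups had received pI-pC, a double-stranded RNA mimic that provokes interferon and is used to switch on an inducible Cre: the young cells were taken 4 weeks after it and the old cells 8 months after it. The ages of the mice themselves, the Cre driver and the number of mice behind each library are not stated in the labels. With 1 library per group, no difference below has a replicate check and none carries a p-value.

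Red cell fate is set by a small group of DNA-binding proteins that work together. Gata1 binds GATA motifs and its cofactor Zfpm1, also called FOG-1. Tal1 or its close relative Lyl1 binds E boxes with an E protein, and the bridging proteins Lmo2 and Ldb1 join it to Gata1 or Gata2 in 1 complex. Klf1 binds CACCC boxes in globin and other red cell genes, Nfe2 is the large subunit of a factor that acts on globin and platelet genes, and Gfi1b is a repressor that recruits the demethylase Kdm1a. Myb keeps progenitors dividing and its level falls as red cells mature. Tal1, Lyl1, Lmo2, Ldb1 and Myb also act in stem cells, whereas Gata1 and Klf1 mark commitment towards red cells, and the myeloid factor Spi1 (PU.1) and Gata1 oppose each other.

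Levels are FPKM, fragments per kilobase of transcript scaled to library size, which allow genes to be compared within a library. Where 4 values follow each other, young comes before old and WT before KO. Each library was multiplied by 1 factor, between 0.940 and 1.02, set by the median ratio over 10935 genes. The libraries listed 13182 to 13327 genes each, and a transcript of 2 kb at 5 FPKM rested on an estimated 89.3 to 95.8 counted units, a counting error of 10.2% to 10.6%. The unit was estimated from the spacing of low FPKM values. For the old libraries it may be too large, which would overstate their counting error. Kit, which encodes c-Kit, stood between 41.1 and 61.0 FPKM. Ly6a, which encodes Sca-1, was 4.86 for young WT and 3.17 for young KO, then 8.80 for old WT and 4.18 for old KO. It was thus lower in KO at each age. RNA of Setd2 over the whole gene was 14.1 FPKM for young WT and 12.4 for young KO, then 15.3 for old WT and 15.5 for old KO, so it did not separate the genotypes. The labels do not say which exons the KO allele lacks. Antigen receptor genes held 0.636% and 0.885% of the summed FPKM in young WT and young KO, against 26.8% for old WT and 4.66% for old KO, and old WT therefore stands apart. Xist, made from the inactive X chromosome, was listed only in the old libraries, with 291 for WT and 279 for KO, so age cannot be told apart from a difference in sex in any comparison between ages.

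RefSeq promoters of GRCm38.p6 were matched for 8 of the 10 genes, with 11 start sites between them; Nfe2 and Lmo2 were not matched. The 250 bases before a start site are shown for the 3 genes that differed by at least 1.5-fold between KO and WT at both ages, Gata1, Klf1 and Gfi1b, and for Myb, which varied least over the libraries. All are written 5′ to 3′ in the direction of the gene, and capitals mark GATA motifs (AGATAA or its variant AGATAG, and likewise TGATAA or its variant TGATAG) and CACCC, read on either strand.
Gata1, chrX:7967911-7968160, minus strand: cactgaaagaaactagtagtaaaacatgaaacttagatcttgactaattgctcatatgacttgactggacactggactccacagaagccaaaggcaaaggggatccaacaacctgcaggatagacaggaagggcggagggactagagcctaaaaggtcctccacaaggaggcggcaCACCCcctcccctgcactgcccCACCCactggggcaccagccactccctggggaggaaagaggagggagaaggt
Klf1, chr8:84901732-84901981, plus strand: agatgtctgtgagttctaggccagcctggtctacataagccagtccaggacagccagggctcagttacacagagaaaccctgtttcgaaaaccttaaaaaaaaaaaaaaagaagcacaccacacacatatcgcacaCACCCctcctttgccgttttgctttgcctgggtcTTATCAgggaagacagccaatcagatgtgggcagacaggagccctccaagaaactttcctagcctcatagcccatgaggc
Gfi1b, chr2:28621983-28622232, minus strand: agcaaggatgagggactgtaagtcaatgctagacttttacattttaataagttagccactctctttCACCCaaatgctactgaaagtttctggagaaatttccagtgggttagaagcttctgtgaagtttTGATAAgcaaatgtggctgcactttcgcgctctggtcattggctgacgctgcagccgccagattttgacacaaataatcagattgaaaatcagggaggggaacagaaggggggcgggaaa
Myb, chr10:21160985-21161234, minus strand: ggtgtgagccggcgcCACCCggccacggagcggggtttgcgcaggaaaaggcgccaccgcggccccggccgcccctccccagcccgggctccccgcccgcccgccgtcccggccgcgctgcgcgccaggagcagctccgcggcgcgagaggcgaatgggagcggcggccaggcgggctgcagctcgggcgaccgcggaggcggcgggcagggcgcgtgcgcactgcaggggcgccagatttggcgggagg
The Klf1 window holds 1 GATA motif, which reads TTATCA on the gene's strand and ends 75 bases before the start site, and 1 CACCC. It also holds an E box spelled CAGATG, 54 bases before the start. Gfi1b has 1 GATA motif, TGATAA, 115 bases before its start, and 1 CACCC. The Gata1 window holds 2 copies of CACCC and no GATA motif, and that of Myb 1 CACCC and no GATA motif. Over the 11 windows, 10 hold a CACCC, 4 a GATA motif, 5 an E box (CANNTG, which includes CAGATG), 1 the CAGATG form, 6 the Myb core AACNG and 0 the Nfe2 core TGAGTCA. Among all 32851 windows of the same length in the table, 52.0% hold a CACCC, 26.5% a GATA motif, 66.2% an E box, 14.4% the CAGATG form, 74.2% an AACNG and 4.46% a TGAGTCA, all on both strands. Several of the 11 windows belong to 1 gene and some of these letters are common, so the matches describe the windows alone.

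Within each library Myb was the most abundant of the 10, followed by Lyl1, and the other 8 lay together well below. Myb stood at 118 FPKM for young WT and 129 for young KO, then 124 for old WT and 135 for old KO, above at least 98.2% of all listed genes in each library. Lyl1 stood at 58.6, 58.3, 69.1 and 75.6 FPKM in the same order. Both were apart from the next gene by more than the counting interval in every library. In young WT the others ran from Lmo2 through Zfpm1, Ldb1, Tal1, Gata1, Nfe2 and Klf1 down to Gfi1b, and 4 of the 9 steps in the whole order were within counting error. Klf1 was the third most abundant in young KO but next to last in young WT. In old WT Nfe2 was lowest, at 5.99 FPKM, and Gfi1b was next at 11.9, 2.00 times as high (95% counting interval 1.57 to 2.55). In old KO Gata1 and Gfi1b were the lowest, at 8.50 and 6.66 FPKM, and did not differ beyond counting, with a ratio of 1.27 (0.992 to 1.63). Intervals of this kind are exact binomial, assume a 2 kb transcript and cover counting error only. In the old libraries the choice of unit widens them. An interval of old libraries that narrowly includes 1 might therefore exclude it with a smaller unit.

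**Figure D1:**
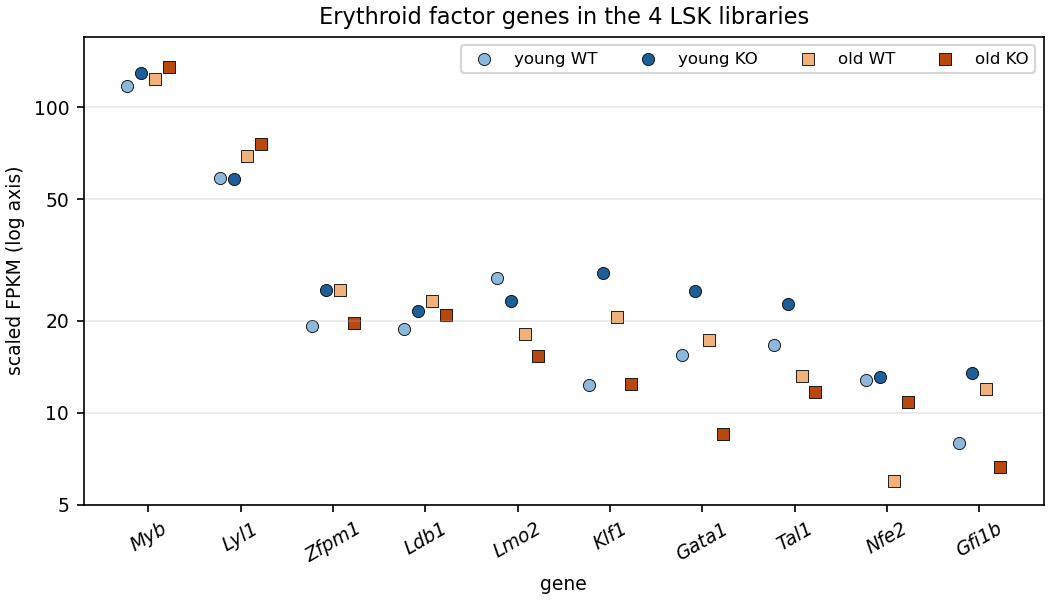
Scaled FPKM (log axis) of the 10 erythroid factor genes, with 1 point for each of the 4 libraries and genes placed by mean level. Myb and Lyl1 lie above the other 8 in all libraries, and the old KO points of Gata1 and Gfi1b, at 8.50 and 6.66, are the lowest for these genes.

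The first comparison set young cells without Setd2 beside young WT cells. On the log2(FPKM + 1) scale 8 of the 10 genes were higher in young KO than in young WT and 2 were lower, with a median difference of 0.29 against 0.00 for all 12409 genes measured. A gene counts as called where the difference reaches 1.5-fold. Klf1, Gfi1b and Gata1 were called higher and no gene of the group was called lower, where 4.08% of all measured genes were called higher and 3.66% lower. Klf1 alone passed 2-fold, which 0.999% of all genes passed upwards and 0.701% downwards. The call of Gata1 did not hold without scaling (0.55), and with a pseudocount of 5 Klf1 alone was called.

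In old cells most of the group lay on the other side: 7 of the 10 genes were lower in KO and 3 were higher, with a median of -0.19 against 0.00 for all 12478 genes measured. Gata1, Gfi1b and Klf1, the genes called higher in young KO, were the 3 called lower in old KO, and Nfe2 was called higher. Of all genes 6.52% were called lower and 5.51% higher. The share of all genes called in opposite directions at the 2 ages was not counted. None of the 10 passed 2-fold on this scale, against 2.67% of all genes downwards and 1.63% upwards. With a pseudocount of 5 Gata1 alone was called lower (-0.73), and Nfe2 lay at 0.53. RNA of LSK cells is a mixture, so fewer cells of a type and less RNA per cell cannot be told apart.

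Gata1 (chrX:7959260-7978071), the master regulator of red cell and megakaryocyte genes, stood at 15.4 FPKM for young WT and 25.0 for young KO, then 17.3 for old WT and 8.50 for old KO. It was highest in young KO and lowest in old KO, with both WT libraries between them. The young ratio of KO to WT was 1.62 (1.40 to 1.88) and the old ratio 0.491 (0.401 to 0.599), or log2 differences of 0.66 and -0.95. Its cofactor Zfpm1 (chr8:122282141-122337251) stood at 19.2, 25.3, 25.2 and 19.7 FPKM in the same order of libraries. Young KO and old WT were its high libraries and the range was narrow. Its ratios were 1.32 (1.15 to 1.52) in young cells and 0.780 (0.676 to 0.900) in old cells, on the side of Gata1 at both ages and outside counting error, but short of the 1.5-fold call.

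Klf1 (chr8:84901928-84905295), the activator of adult beta globin and of many red cell membrane and heme genes, was 12.3 FPKM for young WT and 28.7 for young KO, then 20.6 for old WT and 12.4 for old KO. The first and the last of these libraries were nearly level. The widest young difference of the group was that of Klf1, a ratio of 2.33 (2.00 to 2.72), and its old ratio was 0.600 (0.505 to 0.712). Gfi1b (chr2:28609450-28621982), the repressor needed for red cell and platelet formation, was 7.95, 13.5, 11.9 and 6.66 FPKM. Again young KO was highest and old KO lowest. The ratio was 1.69 (1.38 to 2.08) in young cells and 0.558 (0.441 to 0.702) in old cells.

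The genes of the Tal1 complex differed less between genotypes. Tal1 (chr4:115056426-115071755), at 16.7, 22.7, 13.2 and 11.7 FPKM, was higher in both young libraries than in either old one. Its ratio of 1.36 (1.17 to 1.58) in young cells lay outside counting error, whereas the old ratio of 0.884 (0.729 to 1.07) did not. Lyl1 (chr8:84701457-84704715), the relative of Tal1 that can take its place in stem cells, had a young ratio of 0.995 (0.914 to 1.08) and an old ratio of 1.09 (1.01 to 1.18). Its locus lies wholly within that of Nfix, by 3259 bases, and no source used here says if counting was by strand, so reads may be shared between them. Lmo2 (chr2:103957986-103981878), the LIM-only bridge, stood at 27.5, 23.2, 18.1 and 15.4 FPKM. Both old libraries were below both young ones, and KO was slightly below WT at each age, with ratios of 0.843 (0.741 to 0.959) and 0.849 (0.719 to 1.001). Ldb1 (chr19:46032593-46045214), which dimerises and can bring distant enhancers to promoters, was nearly level at 18.7, 21.5, 23.2 and 20.9 FPKM. Neither of its ratios, 1.15 (0.993 to 1.33) in young and 0.901 (0.781 to 1.04) in old cells, left 1 beyond counting error. Its locus overlaps that of Pprc1 by 329 bases.

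Nfe2 (chr15:103248212-103258403) went its own way. It was 12.8 FPKM for young WT and 13.1 for young KO, then 5.99 for old WT and 10.9 for old KO. The old WT library was the low one and the other 3 lay close together. The old ratio of KO to WT was 1.82 (1.42 to 2.33), while the young ratio was 1.02 (0.854 to 1.23), with a sign that moved with the scaling. Myb (chr10:21124936-21160905) was the least variable, with ratios of 1.10 (1.04 to 1.16) in young and 1.09 (1.03 to 1.15) in old cells. The distance between its highest and lowest library was 0.20 on the log2 scale, against 1.45 for Gata1, 1.16 for Klf1 and 1.01 for Nfe2.

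**Figure D2:**
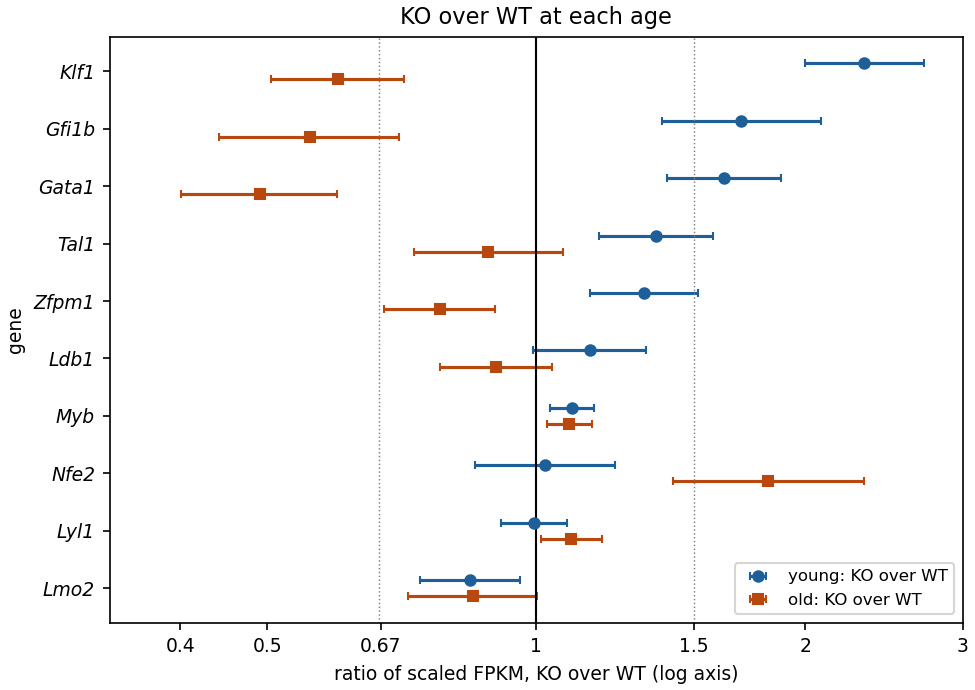
Ratio of scaled FPKM in KO over WT (log axis) for each of the 10 genes in young (circles) and old (squares) cells; bars are 95% exact binomial intervals of counting error, and dotted lines mark 1.5-fold in either direction. Klf1, Gfi1b and Gata1 lie right of 1 in young cells (2.33, 1.69 and 1.62) and left of 1 in old cells (0.600, 0.558 and 0.491), and Nfe2 lies right of 1 in old cells (1.82).

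The size of the shift between ages was given by subtracting the young genotype difference from the old one. It was -1.85 for Klf1, -1.61 for Gata1 and -1.45 for Gfi1b on the log2 scale, -0.73 for Zfpm1, -0.59 for Tal1 and -0.33 for Ldb1. These 6 genes moved from above 0 to below 0. Nfe2 shifted by 0.73 the other way, and Lyl1, Lmo2 and Myb by 0.14 or less in size. A test of this shift needs replicates and was not made.

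Between the ages, 4 of the 10 genes were called in KO cells and 2 in WT cells. Between old KO and young KO, Gata1, Klf1, Gfi1b and Tal1 were called lower and no gene was called higher, with a median of -0.46, where 8.05% of 12534 measured genes were called lower and 12.4% higher. Gata1 and Klf1 passed 2-fold, with differences of -1.45 and -1.15, and those of Gfi1b and Tal1 were -0.92 and -0.90. Lmo2 lay just short of the call, at -0.57. Between old WT and young WT the group was split. Klf1 was called higher, at 0.70, and Nfe2 lower, at -0.98, with a median of 0.20, where 9.87% of 12569 genes were called higher and 5.9% lower. Gfi1b, at 0.53, and Lmo2, at -0.58, lay just short of the call. The 4 comparisons share libraries in pairs. Gata1 is on the X chromosome, and whether the difference in Xist between the ages bears on it was not tested.

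Ratios between genes within 1 library need no scaling. The ratio of Gata1 to Gata2, which rises as red cell progenitors replace Gata2 with Gata1, was 1.07 for young WT and 1.63 for young KO, then 1.62 for old WT and 0.893 for old KO. By value, only in old KO was Gata2 the higher of the pair. No counting interval was computed for this ratio, so 1.07 and 0.893 may not differ from 1. Gata2 itself went from 14.4 and 15.3 FPKM in young WT and KO to 10.7 and 9.52 in old WT and KO. The ratio of Gata1 to Spi1 had the widest range, at 1.04, 2.14, 1.56 and 0.350. Both of its terms differed in old cells: Spi1 stood at 14.9, 11.7, 11.1 and 24.3 FPKM, so that it was the higher of the pair in old KO alone.

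Other ratios bear on how much of each protein's partner was transcribed. Gata1 to Zfpm1 was 0.806 for young WT and 0.989 for young KO, then 0.688 for old WT and 0.432 for old KO, so the cofactor was the more abundant RNA in 3 libraries and did not differ from Gata1 beyond counting error in young KO. Tal1 to Lyl1 was 0.284, 0.389, 0.191 and 0.154, with Lyl1 the larger in every library. Lmo2 to Ldb1 was 1.47, 1.08, 0.781 and 0.735, above 1 in young and below 1 in old cells of either genotype. The ratio of Gfi1b to its myeloid relative Gfi1 was 1.29, 2.07, 1.44 and 1.07, highest in young KO and lowest in old KO. Klf1 to Gata1 was 0.800, 1.15, 1.19 and 1.46, higher in KO at each age. Klf1 thus differed more than Gata1 in young cells. In old cells its ratio of KO to WT was nearer 1 than that of Gata1. The counting intervals of these 2 old ratios overlapped, at 0.505 to 0.712 for Klf1 and 0.401 to 0.599 for Gata1.

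**Figure D3:**
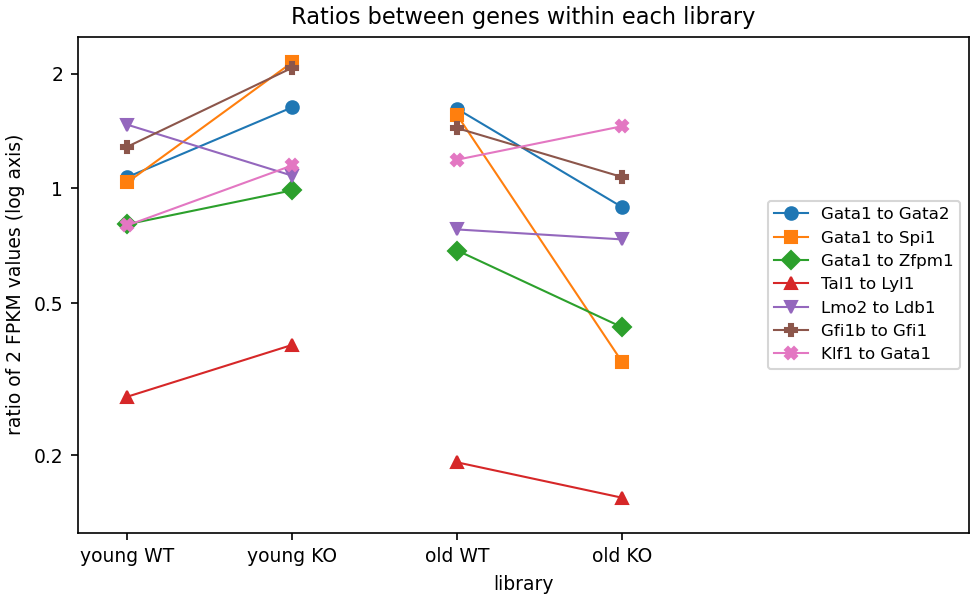
Ratios of the FPKM of 2 genes within each library (log axis), with lines joining WT and KO of the same age. Gata1 to Spi1 goes from 1.04 to 2.14 in young cells and from 1.56 to 0.350 in old cells, the widest steps plotted, while Klf1 to Gata1 is higher in KO at both ages. No counting intervals are drawn.

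Few genes of the proteins that work with these factors were called. Of 33 measured partners and cofactors, among them E proteins, Maf proteins and subunits of co-repressor complexes, 1 was called higher and 0 lower in young KO, with a median of 0.08, and 1 higher and 0 lower in old KO, with a median of 0.01. That is near the share of all genes called higher, 4.08% in young and 5.51% in old cells. Both medians changed sign with the scaling between libraries, down to -0.02 and -0.09. The gene called at both ages was Gatad2b, a subunit of the NuRD co-repressor complex, at 6.25 FPKM for young WT and 12.2 for young KO, then 6.35 for old WT and 10.6 for old KO. It was called in the same direction at both ages, which none of the 10 factors was, though its old call was lost with summed FPKM scaling or a pseudocount of 5. The next widest were Cbfb, the partner of Runx1, at 23.3, 25.7, 19.4 and 26.7, and Ssbp3, which protects Ldb1 from degradation, at 4.06, 5.49, 5.17 and 3.58. The co-repressor gene Cbfa2t3 stood at 12.1, 13.9, 19.5 and 14.5. These 3 were not called in either KO comparison.

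Other regulators of red cell and megakaryocyte development were 2 higher and 0 lower of 28 in young KO, with a median of 0.13. The 2 became 1 without scaling or with a pseudocount of 5, and 5 with one of 0.1. Of all genes 4.08% were called higher and 3.66% lower in young KO, and 5.51% and 6.52% in old KO. In old KO 4 were higher and 1 lower of 29, with a median of 0.02 that changed sign with the scaling, down to -0.08. Cited4, a small co-activator, stood at 1.73, 8.67, 5.98 and 3.30 FPKM in the 4 libraries, listed as before, and, as for Klf1, its call was upward in young cells and downward in old cells. Sox6, which helps to silence embryonic globin genes, was called higher in KO at both ages, at 1.65, 3.15, 0.798 and 1.99. Id1, an inhibitor of E proteins, stood at 1.36, 2.21, 3.35 and 11.0, and its relative Id2 at 3.40, 4.79, 5.61 and 11.5. Both were called higher in old KO, and so was Id3, which was listed only there, at 4.09. Cited2, at 24.3, 33.9, 46.2 and 43.9, was called in neither KO comparison. Sox6 and Id3 are named because the called genes are few.

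The red cell target genes, which encode the globins, the heme pathway, the membrane skeleton and the surface proteins that Gata1, Klf1 and Tal1 act on, mostly lay on the side of Gata1 and Klf1 at each age. In young KO 46 of 47 measured targets lay above 0, 30 were called higher and 0 lower, and the median was 0.67. In old KO 34 of 45 lay below 0, 16 were called lower and 6 higher, and the median was -0.34. Between the KO libraries, 37 of 47 were called lower in old than in young, with a median of -1.10, while old WT against young WT gave 9 higher and 8 lower of 46. A pseudocount of 5 left 14 called higher in young KO, and 9 lower and 2 higher in old KO. The counts stand beside the shares of all genes given above for each comparison.

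Rhd, a Rh surface protein gene, stood at 5.83 FPKM for young WT and 21.4 for young KO, then 10.4 for old WT and 6.36 for old KO. Rhag, which carries the Rh complex to the membrane, stood at 8.06, 22.8, 10.6 and 8.12, and the heme-degrading reductase gene Blvrb at 8.40, 22.5, 13.8 and 8.35. All 3 had young KO as the highest library, old WT next, and old KO within 1 FPKM of young WT, the order seen for Klf1. The beta globin Hbb-bs did not share it, at 46.8, 220, 12.2 and 28.1: it was higher in KO at both ages. So was Hbb-bt, at 52.2, 80.7, 5.51 and 13.1. The 2 are near-identical copies, so the split of reads between them is uncertain, as it is for the alpha globins Hba-a1 and Hba-a2.

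Of the factors of the granulocyte, monocyte, dendritic and lymphoid lineages, 14 of 17 lay above 0 in old KO, where Gata1 was low. The shares of all genes called higher and lower were 4.08% and 3.66% in young KO, and 5.51% and 6.52% in old KO. In young KO 1 of 13 was called higher and 2 lower, with a median of -0.14. In old KO 8 of 17 were called higher and 2 lower, with a median of 0.58 that ran from 0.27 with a pseudocount of 5 to 0.90 with one of 0.1. That 0.58 is the value of Ebf1, which was not listed in old WT and was set to 0.5 FPKM there. Pax5, 1 of the 8, was not listed there either, and Id2, another of the 8, also counts among the other regulators above. Irf8, a monocyte and dendritic cell factor, stood at 12.7 for young WT and 10.5 for young KO, then 11.7 for old WT and 37.5 for old KO, and Cebpb, a myeloid factor, at 6.20, 5.55, 13.1 and 28.7. Old KO was the highest library for both, as for Spi1. Irf4, which drives plasma cells, was the widest in the other direction, at 1.05, 0.905, 33.9 and 4.41, and its high library was old WT.

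**Figure D4:**
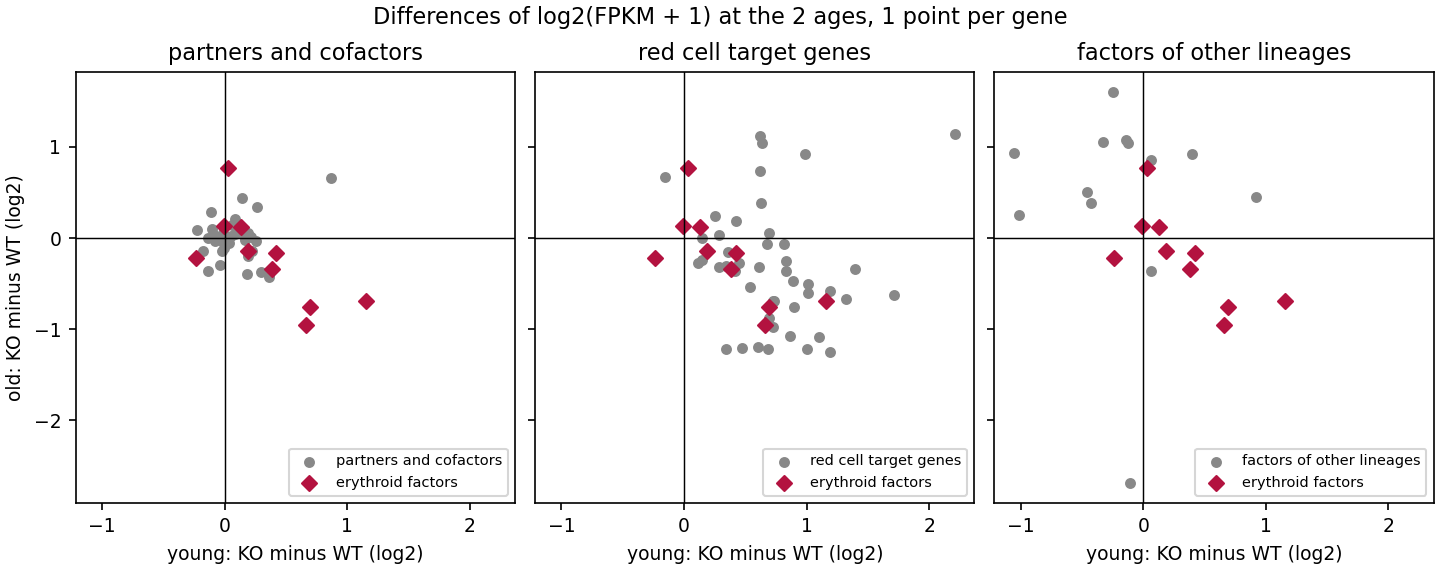
Difference of log2(FPKM + 1), KO minus WT, in young (horizontal) and old (vertical) cells, with 1 grey point per gene measured in both comparisons for partners and cofactors, red cell target genes and factors of other lineages; red diamonds repeat the 10 erythroid factors in each panel. Target genes lie mainly at lower right (medians 0.67 and -0.34) and partners near the origin (0.08 and 0.01). Factors of other lineages lie mainly above 0 in old cells (0.58). Each median is over all genes of the list measured at that age, including genes not plotted.

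Markers of other cells moved in the same comparisons, and their part in the differences of the erythroid factors was not tested. Beside the marker counts below, 4.08% of all genes were called higher and 3.66% lower in young KO. In old KO these shares were 5.51% and 6.52%. All 9 late red cell genes found are also among the red cell targets above, so the lists are not separate counts, and 5 of the 6 targets called higher in old KO are late red cell genes. In young KO, 8 of the 9 were called higher and 0 lower, or 4 higher without scaling or with a pseudocount of 5, and their summed level was 176 FPKM for young WT and 439 for young KO, then 40.9 for old WT and 69.1 for old KO. In old KO 5 of 8 were called higher and 1 lower, or 2 higher and 0 lower with a pseudocount of 5. Late red cell RNA was thus higher in KO at both ages, whereas Gata1, Klf1 and Gfi1b were lower in old KO. Kel, at 5.14, 11.4, 5.31 and 3.44, went against that list in old cells. Megakaryocyte genes had 1 of 17 higher and 2 lower in young KO and 1 of 15 higher and 5 lower in old KO, with sums of 187, 174, 147 and 119 FPKM. Pf4, a platelet chemokine gene, stood at 12.8, 16.9, 10.1 and 5.41, and Vwf at 4.42, 5.41, 5.08 and 2.35, both highest in young KO and lowest in old KO as Gata1 was. Gp9, at 7.02, 3.46, 7.57 and 4.30, was lower in KO at both ages.

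In old KO 19 of 22 granulocyte and monocyte genes were called higher and 0 lower, with a median of 1.76. Their sums were 1156 FPKM for young WT and 1015 for young KO, then 1453 for old WT and 2811 for old KO, and 6, 6, 0 and 0 of the 22 were not listed. The neutrophil granule gene Camp was absent from both young lists and reached 2.86 in the old WT library and 40.8 in old KO, and S100a9 went likewise, at 9.24 and 68.6. In the old pair Retnlg reached 2.06 and 40.4, and Chil3 2.64 and 39.5. In young KO the list had 2 of 15 higher and 1 lower. The summed level was thus highest in the library in which Gata1 and Gfi1b were lowest.

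Plasma cell and B cell genes were highest in old WT, with sums of 53.6, 66.4, 2212 and 226 FPKM and 9, 6, 4 and 0 of 15 not listed. Of 14 measured in old cells 10 were called lower in KO and 2 higher, against 0 lower and 2 higher of 7 in young KO. Jchain, which joins secreted antibodies, stood at 13.03, 19.7, 1891 and 141, and Mzb1 at 2.60, 4.98, 106 and 11.2. Old WT is the reference of the old comparison and also the library in which Nfe2 was lowest. With 1 library per group, the old comparison cannot be repeated without it.

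The remaining marker lists were those of mast cells and basophils, of T and NK cells, and of stem and multipotent progenitors. Mast cell, basophil and eosinophil genes, some of which also respond to Gata1 and Gata2, summed to 635, 579, 291 and 128 FPKM. In young KO 4 of 12 were called higher and 2 lower, and in old KO 0 of 8 higher and 3 lower. The basophil protease Prss34 stood at 279, 274, 50.2 and 11.0, Prg2 at 190, 118, 175 and 65.8, and Epx at 31.8, 19.9, 16.8 and 8.34. The IgE receptor gene Fcer1a, at 9.13, 15.1, 4.86 and 4.20, was called higher in young KO. T and NK cell genes summed to 41.3 to 62.7 FPKM with Nkg7, at 58.5, 47.9, 33.6 and 38.3, as the main part, and Trac was listed only in old KO, at 2.82. Stem and multipotent progenitor genes had 0 of 19 called in young KO and 0 higher and 4 lower of 19 in old KO, with sums of 329, 299, 272 and 267 FPKM. Hlf, a stem cell factor, stood at 11.1, 14.1, 14.7 and 6.20, and Ly6a at 4.86, 3.17, 8.80 and 4.18. Both were called lower in old KO, whereas Cd48, at 52.8, 48.3, 32.6 and 45.3, was not called.

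Few of the genes next to the 10 factors were called. Of 50 other genes with a locus within 100 kb of the 10, 47 were measured in young cells, with 0 called higher, 3 called lower and a median of 0.05, where 4.08% and 3.66% of all genes were called. In old cells 47 were measured, with 1 called higher, 0 lower and a median of 0.06, where the shares were 5.51% and 6.52%. These counts are near those of any genes. None of the 7 neighbours of Gata1 and none of the 3 of Gfi1b was called in either comparison. Of the 13 neighbours of Klf1, Junb, an immediate early gene 71614 bases away, was called lower in young KO, at 30.03, 18.6, 117 and 128, and so was Hook2, at 4.95, 2.59, 4.86 and 4.23, both against the direction of Klf1. Prdx2, an antioxidant gene 64292 bases from Klf1 and a red cell target, was not called, but its values of 28.6, 38.5, 33.7 and 26.004 put young KO highest and old WT next, as for Klf1. Near Lyl1, the immediate early gene Ier2 was called lower in young KO, at 105, 61.3, 233 and 283, and G430095P16Rik higher in old KO, at 4.90, 5.63, 3.08 and 7.13. Nfix, which overlaps Lyl1, stood at 13.6, 13.6, 16.5 and 12.3, with no call.

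**Figure D5:**
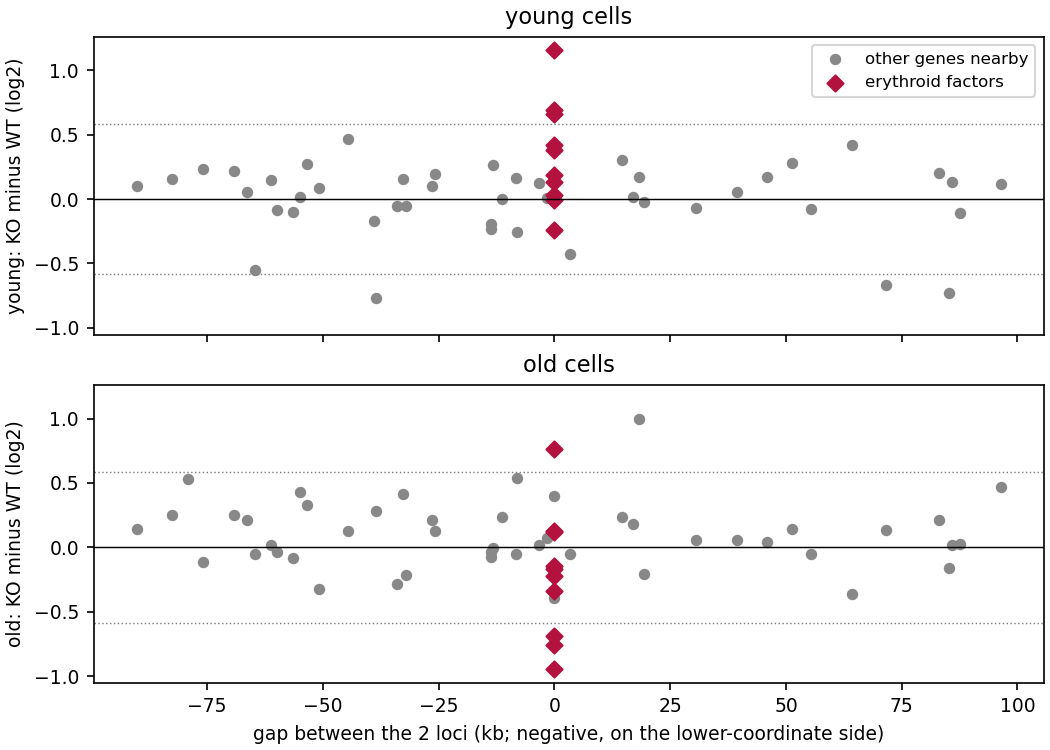
Difference of log2(FPKM + 1), KO minus WT, of the 10 erythroid factors (diamonds at 0) and of the measured genes within 100 kb (grey), by the gap between the loci in kb, in young (top) and old (bottom) cells; dotted lines mark 1.5-fold. In young cells 3 neighbours lie beyond the lower line and 0 beyond the upper one, while Klf1 lies at 1.16.

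The genes closest in pattern were sought for the 3 factors whose libraries spanned at least 1 on the log2 scale, as the Euclidean distance between profiles over the 4 libraries after each was centred on its own mean. For Gata1 they were Dpy19l4 (distance 0.13), Sept8 (0.18), Tspan33 (0.18), the iron transporter gene Slc11a2 (0.18) and the water channel gene Aqp1 (0.19), a red cell target that stood at 62.7, 115, 83.3 and 39.0 FPKM. For Klf1 they were Cd2bp2 (0.14), the heme enzyme gene Cpox (0.14), at 18.1, 42.7, 31.8 and 20.9, Blvrb (0.16), Nqo1 (0.16) and Epdr1 (0.18). Cpox, Blvrb and Aqp1 are in the target list described above. Nfe2 was nearest to Nmt2 (0.13), Cept1 (0.14), Arl10 (0.18), Xrcc3 (0.19) and Rp2 (0.19), none of which is in a list used here. Among the 10 themselves Ldb1 and Myb were closest (0.20), both nearly level, and the closest pair that included Klf1 was Klf1 with Gfi1b (0.33). With 4 libraries, such likeness is a description.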

How the data were processed

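The deposited values are 1 FPKM per gene and library, per the file headers, with each gene's locus. The submitters' processing notes list StringTie 1.3.0, HISAT2 2.0.4, Bismark, Trimmomatic, FastQC and CASAVA, without their roles, and the builds mm10 and GRCm38. Each library took 100 ng of RNA, per the labels. The 2 bisulfite samples were not analysed here.

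The files list only values of 0.5 or more, as seen in the values, and an unlisted gene was set to 0.5. Of 14468 gene identifiers, 14382 matched the name table, and 18 symbols turned into dates were restored. Values were scaled by median ratios and compared as log2(FPKM + 1), which understates differences of low genes. A gene was measured at 1 or more in either library and called at 1.5-fold. Counted units were estimated from the spacing of low FPKM values, with 2 steps per unit. Odd numbers of steps were rare in young WT and KO (1.42% and 1.15%) but common in old WT and KO (52.1% and 57.5%). The choice of 2 steps therefore widens the intervals of the old libraries, and the ages also differ in this spacing. The scaling and the 1.5-fold calls were tested on simulated data only, in which as many genes were raised as lowered. A library with a dominant class of genes, as old WT had, was not simulated. The counted units and their intervals were not tested. Python 3.11.15, pandas 2.3.3 and scipy 1.17.1 were used.

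The 10 genes, the 11 lists and the rule for named genes were chosen with earlier results of these data known. The rule names Setd2, Kit, Ly6a, the genes in the ratios, up to 4 genes per list with the widest KO differences at 5 FPKM or more, called genes within 100 kb, and the 5 nearest in pattern. Xist, Trac, Hba-a1, Hba-a2, Nfix, Pprc1, Prdx2, Sox6 and Id3 were added after their values were seen. Of 247 list entries, 233 were found. Some genes that the rule names are left out of the text. Tried instead were no scaling, upper-quartile and summed FPKM scaling, pseudocounts of 0.1 and 5, unlisted genes at 0, 2 other filters and a 2-fold call.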

Additional observations from a re-analysis of the deposited data

Results flagged for a closer look

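For 7 of the 10 genes the difference between KO and WT had opposite signs at the 2 ages. Each group has 1 library, no test was made, and the share of all genes with opposite signs was not counted. The old difference minus the young one was -1.61 for Gata1, -1.85 for Klf1, -0.59 for Tal1, -0.73 for Zfpm1, -1.45 for Gfi1b, -0.33 for Ldb1 and 0.14 for Lyl1 on the log2 scale. For Ldb1 neither difference lay outside counting error, nor did the old one of Tal1 or the young one of Lyl1. Of the 4 lists of related genes, 2 also had medians of opposite sign: the old median minus the young one was -1.01 for the red cell target genes and 0.72 for the factors of other lineages. Each median is over the genes measured at that age, 47 young and 45 old for the targets. For the factors of other lineages these were 13 young and 17 old. These differences were not tested.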

How the results depend on the processing

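Of the alternatives, 5 could move the difference of a gene listed in all libraries, by scaling or pseudocount. Under these all 10 genes kept the sign of their difference between KO and WT in old cells, and 9 in young cells. The exception was Nfe2 in young cells, from -0.08 to 0.03. The median of the 10 genes ran from 0.17 to 0.30 in young KO and from -0.29 to -0.15 in old KO.

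Without scaling, 2 of the 3 genes were called higher in young KO. With a pseudocount of 5, the genes called 1.5-fold went from 3 to 1 higher in young KO, and in old KO from 1 to 0 higher and from 3 to 1 lower. The 2-fold call left 1 higher in young KO and 0 higher and 0 lower in old KO. Between old WT and young WT, the 1 gene called higher, Klf1, became 0 with summed FPKM scaling, a pseudocount of 5 or the 2-fold call. The 1 called lower there became 2 with no scaling, upper-quartile scaling, summed FPKM scaling or a pseudocount of 0.1, and 0 at 2-fold. Between old KO and young KO, the 4 called lower became 2 at 2-fold and 5, with Lmo2, under upper-quartile or summed FPKM scaling or a pseudocount of 0.1.

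Without scaling, the median of all genes moved to -0.10 in young KO, with 373 called higher and 694 lower in place of 506 and 454, and to -0.11 in old WT against young WT, with 1006 and 1071 in place of 1241 and 742. Summed FPKM scaling gave 526 and 964 in old KO in place of 688 and 814, 962 and 1145 in old WT against young WT, and in old KO against young KO 1036 and 1857 in place of 1551 and 1009, with a median of -0.19. Upper-quartile scaling gave 1265 and 1360 there. A pseudocount of 5 left 121 and 81 called in young KO and 245 and 315 in old KO. The differences of Gata2 and Gfi1 in young cells and of Setd2 in old cells changed sign, to -0.03, -0.04 and -0.07. Of the red cell targets, a pseudocount of 5 left 14 of 30 called higher in young KO, and 9 of 16 called lower in old KO. No paired analysis was possible because each group has 1 library. The differences of Ldb1 between KO and WT were not resolved at this depth with the counted unit used.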
